A study of Mus musculus with 20 samples.

Results

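The effect of benzbromarone (BBR), a uricosuric drug used for gout, on the liver transcriptome was examined by comparing 5 livers of BBR-treated mice (Vec+BBR) with 5 livers of vehicle-treated mice (Vec), all of which had received a control vector. These 10 libraries were chosen by their treatment labels, "benzbromarone" and "control", from 20 libraries of bulk RNA sequencing in all, and no measured value was used in the choice. Each library is labelled as liver, and the labels give the treatment but not the vector. According to the study's methods, all animals were male and homozygous for the db mutation of Lepr, the leptin receptor gene, a model of obesity with diabetes. They were injected through the tail vein at 5 weeks of age with AAV8 carrying a non-targeting shRNA (Vec) or shRNAs against Pparg (shRNA), and received 25 mg per kg of BBR or vehicle by gavage for 4 weeks, and were fasted for 6 h before the end. No mouse without AAV8 and no lean mouse is among the 20, so that every value below describes virus-injected obese livers. The other 10 libraries, labelled "PPAR knockdown" with and without benzbromarone (shRNA+BBR and shRNA), entered the model for the estimate of the spread and are used at the end for the same drug contrast.

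The liver is built mainly of hepatocytes, which are divided along the lobule into a periportal zone, active in urea synthesis and gluconeogenesis, and a pericentral zone, active in glutamine synthesis and bile acid synthesis. Hepatocytes secrete most plasma proteins, remove nitrogen from amino acids, supply methyl groups through the methionine cycle and make cholesterol. Between the hepatocyte plates lie sinusoidal endothelium, stellate cells that store retinoids and can deposit collagen, and Kupffer cells, the resident macrophages. In whole tissue, fewer cells of a type and less RNA per cell cannot be told apart.

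The 10 libraries held 17825543 to 24451866 assigned counts, and the defining hepatocyte transcripts were abundant in each, with Alb at 107564, 123615, 111121, 97797 and 108542 CPM (normalized counts relative to library size) in Vec 1 to 5 and 98657, 75123, 107068, 87852 and 87147 CPM in Vec+BBR 1 to 5. Mitochondrial genes took 9.14% to 10.8% of the counts in Vec and 9.96% to 13.8% in Vec+BBR (exact permutation test, two-sided, p = 0.0952). On the first principal component, which held 45% of the variance among the 10 libraries, Vec 1, 2 and 4 lay between -30.7 and -29.4, Vec 5 at -5.86 and Vec 3 at 2.38, and the Vec+BBR libraries between 8.88 and 25. Vec 3 and Vec 5 thus stood apart from the rest of their group, and for gene lists whose count of called members moved by more than 1.5 times when a library was left out, the lowest or highest such count is given with its library. Without any scaling beyond the library total, the median log2 fold change of all genes was 0.13 instead of -0.005, and 80% rather than 49.1% of the called genes were higher, so that fold changes below are relative to the typical gene, and splits of called genes that turned without this scaling are given beside the lists.

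Genes moved in both directions with BBR. Of 12342 genes tested with edgeR, 15.5% were called at an adjusted p under 0.05, 7.58% of them higher and 7.88% lower in Vec+BBR (percentages of all genes tested). The Vec and Vec+BBR values did not overlap for 8.94% of genes. These shares are the background for the gene groups below. The genes with the largest changes, in fold or in CPM, were picked among called genes whose groups did not overlap. For them the lack of overlap follows from this choice and is no further result. With all libraries 1908 genes were called, against 2395 without Vec 3 and 2228 without Vec 5. The count fell to 1237 without Vec 2, 1248 without Vec 1 and 1256 without Vec+BBR 4.

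Among the gene lists with at least 10 tested members, the shares called lower were highest for the pericentral zone (16 of 24), the methionine cycle and choline (13 of 20), sulfotransferases and flavin monooxygenases (12 of 20), the urea cycle and amino acid breakdown (21 of 36) and complement and coagulation (17 of 36). The shares called higher were highest for endothelium (15 of 28), hepatocyte injury markers (10 of 21), inflammatory macrophages (8 of 18) and stellate cells and matrix (15 of 35).

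**Figure D1:**
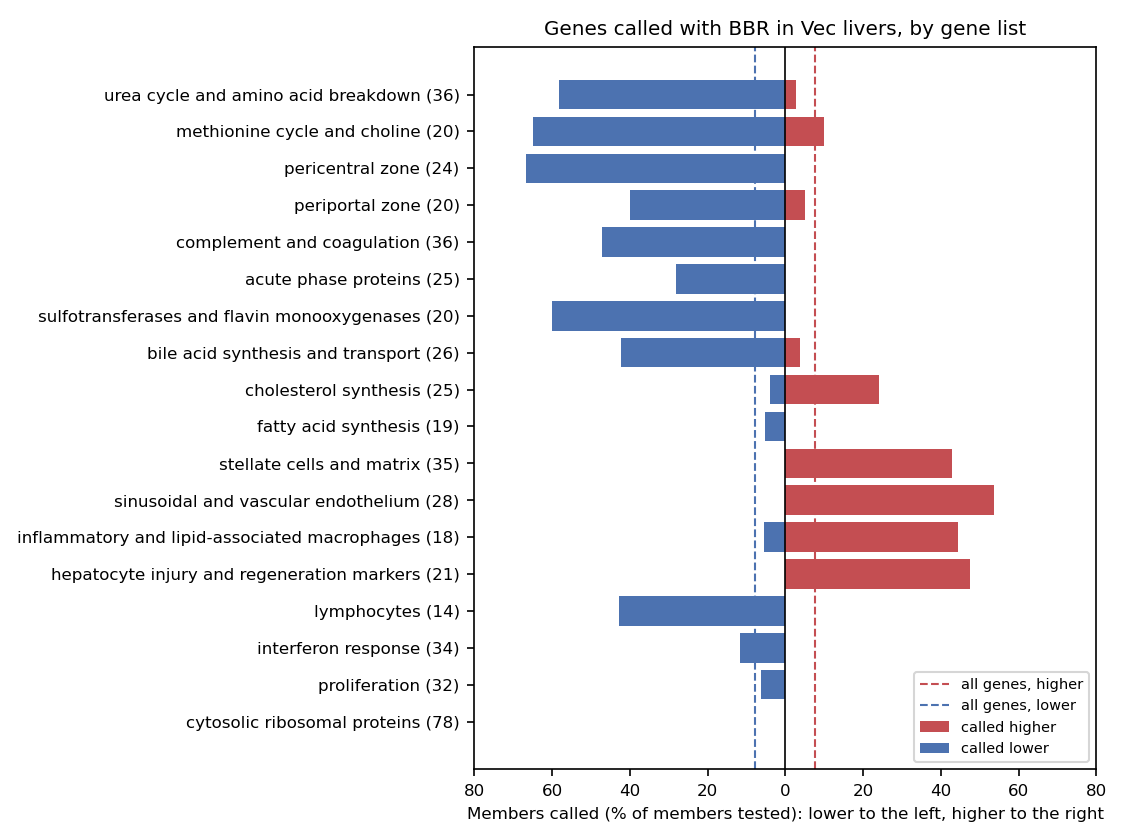
Percentage of the tested members of 18 gene lists that were called higher (red, to the right) or lower (blue, to the left) with BBR in Vec livers, with the number tested in brackets and dashed lines at the percentages over all genes (7.58% higher, 7.88% lower). In the pericentral list 16 of 24 members were called lower, and in the endothelial list 15 of 28 were called higher.

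Sulfotransferases of the Sult2a family, which sulfate steroids and bile acids, fell together. Sult2a8 (chr7:14410686-14446769, GRCm38) was at 109.9, 108, 57.1, 72.5 and 78.2 CPM in Vec and at 19.6, 10.5, 8.7, 13.3 and 10.9 CPM in Vec+BBR (log2 fold change -2.75 ± 0.28 (SE), adjusted p = 7.94e-06). The groups did not overlap, as the choice of this gene required. The SD was 23.1 CPM in Vec and 4.24 CPM in Vec+BBR. Of 20 tested genes of sulfotransferases and flavin monooxygenases, 12 were called lower and 0 higher, and the median log2 fold change over the list was -1.45, beside -0.005 over all genes. Sult1e1, which sulfates estrogens, was among them (-1.63, adjusted p = 0.0026). Fmo5, the most abundant member, was at 1622 and 1413 CPM on average (log2 fold change -0.20, adjusted p = 0.15). Sult2a1 and Sult2a5 were also called lower, but 11.4% and 16.6% of the 100-base windows of their transcripts recur in other Sult2a genes, so that their counts cannot be fully assigned.

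Several decreases concerned secreted factors, receptors and transporters. Igfbp2, a binding protein of insulin-like growth factors, was at 64.1, 75.1, 11.8, 59.4 and 17 CPM in Vec and 9.23, 8.02, 3.57, 7.9 and 3.48 CPM in Vec+BBR (log2 fold change -2.81 ± 0.48 (SE), adjusted p = 8.70e-04), where Vec 3 and Vec 5 were the lowest Vec livers but above every Vec+BBR liver. Lrtm1, a leucine-rich repeat membrane protein, was at 71.1, 52.4, 36.3, 68.4 and 59.8 CPM and 19.7, 11.2, 15.2, 8.26 and 15.5 CPM (log2 fold change -2.04 ± 0.20 (SE), adjusted p = 7.94e-06). Here all 5 Vec livers were above all 5 Vec+BBR livers, as the choice of this gene required. Slc22a7, a transporter of organic anions, fell from a mean of 9.66 ± 6.07 (SD, n = 5) to 1.63 ± 0.58 CPM. Avpr1a, the vasopressin receptor of hepatocytes, fell by 2.04 on the log2 scale (adjusted p = 1.83e-04) and Ntrk2, a neurotrophin receptor, by 2.26 (adjusted p = 0.0055). Acmsd, which diverts tryptophan breakdown away from NAD synthesis, fell by 2.12 (adjusted p = 5.06e-04), and Rdh16f2, of the retinol dehydrogenase family, by 1.83 (adjusted p = 7.98e-05).

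Among the increases were several genes with low levels in the Vec livers. Arhgap27, a GTPase-activating protein, was at 1.65, 0.51, 2.16, 2.08 and 1.13 CPM in Vec and 8.21, 7.7, 9.09, 9.95 and 12.6 CPM in Vec+BBR (log2 fold change 2.63 ± 0.29 (SE), adjusted p = 2.07e-05). Hk2, the hexokinase typical of muscle and fat, was at 0.95, 0.9, 2.4, 1.01 and 0.85 CPM and 4.32, 7.21, 5.71, 7.41 and 5.37 CPM (log2 fold change 2.28 ± 0.28 (SE), adjusted p = 5.69e-05). Both were higher in each Vec+BBR liver than in any Vec liver, which their choice required. For Hk2 the Vec group had 1 liver, Vec 3, apart from the other 4. Fam83a was at 0.25, 0.32, 1.62, 0.46 and 0.75 CPM in Vec and 3.76, 6.85, 4.76, 8.35 and 4.38 CPM in Vec+BBR, and Wfdc2, a secreted protein of epithelia, at 1.2, 1.22, 10.9, 1.37 and 4.52 CPM and 18.6, 12.8, 18.2, 17.5 and 18.9 CPM (log2 fold change 2.14 ± 0.40 (SE), adjusted p = 0.0017). For both, Vec 3 was the highest Vec liver and Vec 5 the next. Ctse, a cathepsin (2.69, adjusted p = 5.19e-04), Gprc5b, an orphan receptor (2.49, adjusted p = 0.001), and Slc24a3, an exchanger of sodium and calcium (2.59, adjusted p = 0.0011), rose as well on the log2 scale. So did Insyn1 (2.40, adjusted p = 0.0021), Gipc2 (2.27, adjusted p = 0.002) and Cbr3, a carbonyl reductase (2.20, adjusted p = 0.0022). Their choice required no overlap between the groups.

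Among the called increases, the genes picked for the largest gain in CPM changed less in fold than those above. Selenop, the selenium carrier of plasma, was at 5707, 6178, 6098, 4927 and 5911 CPM in Vec and 7315, 6525, 7892, 8015 and 7583 CPM in Vec+BBR (log2 fold change 0.37 ± 0.10 (SE), adjusted p = 0.013). Hsd17b13, a retinol dehydrogenase on lipid droplets, was at 240.4, 302, 376, 254 and 319 CPM and 566, 545, 664, 629 and 539 CPM (log2 fold change 0.98 ± 0.12 (SE), adjusted p = 5.69e-05). Every Vec+BBR liver exceeded every Vec liver in both genes, which their choice required. For Hsd17b13 the values within a group were close. The Selenop call was lost in the fit of the 10 libraries alone (adjusted p = 0.0528). It was also lost with the replicate number as a block (adjusted p = 0.134). Mlec, a lectin of the endoplasmic reticulum, rose from a mean of 116 ± 24.7 (SD, n = 5) to 239.7 ± 10.1 CPM, and Ghitm, of the inner mitochondrial membrane, from 334 ± 29.5 to 489 ± 35 CPM. Crot, a peroxisomal carnitine acyltransferase, and Hsd17b12, of the elongation of long fatty acids, rose by 0.60 and 0.77 on the log2 scale (adjusted p = 7.65e-04 and 0.0067).

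Genes of the urea cycle and of amino acid breakdown were lower in the BBR-treated livers. Of 36 tested, 21 were called lower and 1, Agxt2, higher, and the median log2 fold change over the list was -0.51. Ass1, which makes argininosuccinate in the urea cycle, was at 4647, 4904, 2319, 5753 and 3033 CPM in Vec and 1887, 2008, 2008, 1729 and 2133 CPM in Vec+BBR (log2 fold change -1.08 ± 0.20 (SE), adjusted p = 0.0012), although 26.9% of its 100-base windows recur in the entry Gm5424. Cps1, the entry enzyme of the cycle, was at 3262, 3482, 1337, 4382 and 2347 CPM and 1157, 1347, 1549, 1297 and 1543 CPM (log2 fold change -1.10 ± 0.23 (SE), adjusted p = 0.0029). For Cps1, Vec 3 lay within the Vec+BBR range and the other 4 Vec livers above it.

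Oat, which converts ornithine to glutamate semialdehyde, was at 4120, 2962, 1212, 5101 and 1928 CPM in Vec and 976, 803, 495, 619 and 883 CPM in Vec+BBR (log2 fold change -2.02 ± 0.33 (SE), adjusted p = 6.74e-04), with no overlap. Got1, the cytosolic aspartate aminotransferase, was at 585, 616, 111, 866 and 166 CPM and 85.2, 156, 118, 122 and 201 CPM (log2 fold change -1.78 ± 0.43 (SE), adjusted p = 0.0085). Vec 3 and Vec 5 were inside the Vec+BBR range for Got1 and far below the other 3 Vec livers. Agxt, which transaminates glyoxylate, fell from a mean of 203 ± 107 to 72.7 ± 11.8 CPM (SD, n = 5), Hpd, of tyrosine breakdown, from 3135 ± 1192 to 1164 ± 152 CPM, and Tat, the entry enzyme of tyrosine breakdown, from 1675 ± 686 to 740.2 ± 121 CPM. The number of list members called ranged from 16 without Vec 2 to 25 without Vec 3. Without Vec 3 the median of the list was -0.59 and without Vec 4 it was -0.44.

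The methionine cycle and choline breakdown followed the same direction, apart from a strong rise of a taurine gene. Of 20 tested members, 13 were called lower and 2 higher, with a median of -0.46. Bhmt, which methylates homocysteine from betaine, was at 8669, 7514, 7143, 7587 and 8520 CPM in Vec and 5793, 3267, 5716, 4829 and 5593 CPM in Vec+BBR (log2 fold change -0.65 ± 0.13 (SE), adjusted p = 0.0022), and 17.3% of its windows recur in the entries Gm5096 and Bhmt-ps1. Mat1a, which makes S-adenosylmethionine in hepatocytes, fell from 6681 ± 1872 to 3860 ± 312 CPM (SD, n = 5). Cth, which forms cysteine, was at 976, 1012, 303, 1325 and 520.5 CPM in Vec and 502, 309, 327, 314 and 387 CPM in Vec+BBR (log2 fold change -1.17 ± 0.28 (SE), adjusted p = 0.0083), where Vec 3 was below every Vec+BBR liver and the other 4 Vec livers were above all of them. Csad, which makes the precursor of taurine, went the other way and was at 12.7, 14.5, 33.7, 7.76 and 22 CPM in Vec and 75.5, 67.1, 116, 106 and 128 CPM in Vec+BBR (log2 fold change 2.44 ± 0.35 (SE), adjusted p = 2.50e-04). Each Vec+BBR liver had at least 67.1 CPM of Csad and no Vec liver more than 33.7 CPM.

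**Figure D2:**
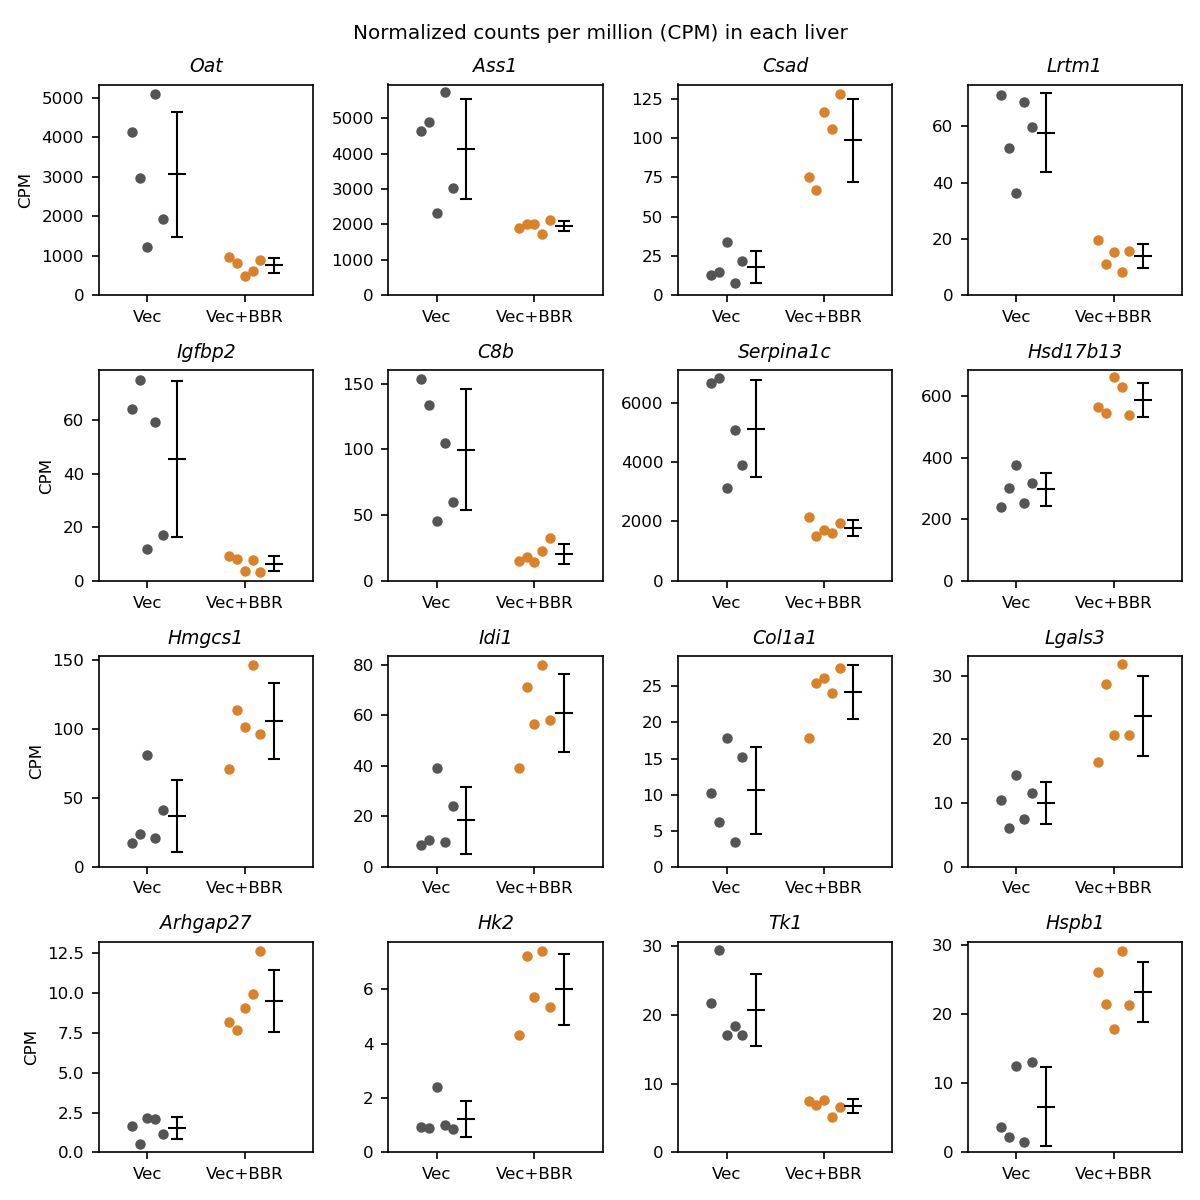
Normalized CPM of 16 genes in each liver, with grey points for the 5 Vec and orange points for the 5 Vec+BBR livers, and bars for the mean and SD of each group, on axes that start at 0. Oat, Ass1, Lrtm1, Igfbp2, C8b, Serpina1c and Tk1 were lower and Csad, Hsd17b13, Hmgcs1, Idi1, Col1a1, Lgals3, Arhgap27, Hk2 and Hspb1 higher on average in Vec+BBR.

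Markers of the pericentral zone were lower as a group. Of 24 tested, 16 were called lower and 0 higher, with a median of -0.63, and between 12 members (without Vec+BBR 3) and 17 (without Vec 3) were called when a library was left out. Besides Oat, Slc1a2, a glutamate transporter, fell by 1.58 on the log2 scale (adjusted p = 0.0011), with means of 157 ± 60.9 CPM in Vec and 52.5 ± 11.9 CPM in Vec+BBR (SD, n = 5). Glul, glutamine synthetase and the classical marker of the last hepatocyte rows around the central vein, was at 1087, 873, 864, 753 and 926 CPM in Vec and 678, 644, 575, 767 and 733 CPM in Vec+BBR (log2 fold change -0.41 ± 0.11 (SE), adjusted p = 0.018). The groups overlapped slightly, and the call was lost without Vec 1 (adjusted p = 0.0626) and without Vec+BBR 3 (adjusted p = 0.0548). It was also lost without scaling (log2 fold change -0.27, adjusted p = 0.102) and with the replicate number as a block (adjusted p = 0.0846). Periportal markers were called lower for 8 of 20 and higher for 1, Hsd17b13, with a median of -0.28. Etnppl, which degrades phosphoethanolamine, fell by 0.97 on the log2 scale (adjusted p = 0.0053), and Ass1 and Pck1, described with urea synthesis and glucose, were among the others. Both zones thus held called decreases, and the difference between their shares was not tested.

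Among secreted plasma proteins, called genes were lower with BBR, while many others did not pass the test. Of 36 complement and coagulation genes tested, 17 were called lower and 0 higher, with a median of -0.36. When a library was left out, 10 (without Vec 2) to 23 (without Vec 3) were called. C8b, a chain of the terminal complement complex, was at 153, 134, 45.9, 105 and 60.3 CPM in Vec and 15.5, 17.9, 14.2, 22.9 and 32.3 CPM in Vec+BBR (log2 fold change -2.28 ± 0.33 (SE), adjusted p = 2.33e-04), again with Vec 3 and Vec 5 lowest in their group but above every Vec+BBR liver. The coagulation factor F7 fell from 81.3 ± 25.3 to 39.1 ± 3.38 CPM and the complement component C9 from 328 ± 75.6 to 195 ± 40.6 CPM (SD, n = 5). C3, the most abundant of the list, was at 8880 and 6439 CPM (adjusted p = 0.057). Of 25 acute phase genes, 7 were called lower and 0 higher (6 and 4 without scaling). Serpina3k, a serine protease inhibitor, was at 10978, 9304, 5909, 5846 and 6191 CPM in Vec and 4088, 2851, 3221, 3203 and 4327 CPM in Vec+BBR (log2 fold change -1.11 ± 0.18 (SE), adjusted p = 6.20e-04), and Ahsg, fetuin-A, fell from 6414 ± 1496 to 4030 ± 562 CPM.

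Serpina1a to Serpina1d, α1-antitrypsin genes of the Serpina1 cluster on chromosome 12, fell by unequal amounts. The log2 fold change was -1.52 for Serpina1c and -0.61 for Serpina1b. Serpina1c was at 6657, 6821, 3115, 5079 and 3913 CPM in Vec and 2162, 1518, 1727, 1595 and 1943 CPM in Vec+BBR (log2 fold change -1.52 ± 0.21 (SE), adjusted p = 1.63e-04). Serpina1b changed less, with means of 10699 ± 1975 CPM in Vec and 7032 ± 750.0 CPM in Vec+BBR (SD, n = 5, log2 fold change -0.61 ± 0.12 (SE), adjusted p = 0.002). For each of them every Vec liver was above every Vec+BBR liver, which their choice required. Serpina1d and Serpina1a lay between them with log2 fold changes of -1.34 and -1.12 (adjusted p = 1.53e-04 and 1.12e-04). The genes share much of their transcripts, and 58.5% of the 100-base windows of Serpina1c, 42.8% of Serpina1a, 29.3% of Serpina1d and 14.8% of Serpina1b recur in another gene, so that the division of counts among them is uncertain and the difference between their fold changes was not tested. The windows from 250 bases before to 50 after the start, from RefSeq on GRCm38.p6, are shown for the largest and the smallest change of these 4 genes, Serpina1c (chr12:103904901-103905200, minus strand) and Serpina1b (chr12:103738140-103738439, minus strand), 5′ to 3′ with capitals at the bases that differ or have no partner in the alignment of the pair. Of 302 aligned positions 276 were identical, 91.4%. The window of Serpina1e, whose level is not described here, was 64.2% to 69.6% identical with those of the other 4 genes.
Serpina1c: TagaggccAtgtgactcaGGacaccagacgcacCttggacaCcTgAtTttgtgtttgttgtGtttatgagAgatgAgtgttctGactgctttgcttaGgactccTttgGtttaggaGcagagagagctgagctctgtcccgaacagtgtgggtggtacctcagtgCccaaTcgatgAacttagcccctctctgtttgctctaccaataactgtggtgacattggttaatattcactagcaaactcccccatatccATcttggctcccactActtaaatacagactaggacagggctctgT
Serpina1b: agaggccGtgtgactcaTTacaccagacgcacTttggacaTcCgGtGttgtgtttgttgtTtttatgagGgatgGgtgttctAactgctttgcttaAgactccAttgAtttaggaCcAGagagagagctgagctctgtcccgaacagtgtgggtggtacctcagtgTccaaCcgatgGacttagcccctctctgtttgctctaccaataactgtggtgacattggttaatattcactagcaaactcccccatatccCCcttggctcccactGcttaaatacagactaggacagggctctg

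Iron and bile acid genes moved in part. Hamp, which encodes the iron hormone hepcidin, was at 669, 742, 319.6, 421 and 264 CPM in Vec and 397, 197, 107, 87.8 and 252 CPM in Vec+BBR (log2 fold change -1.21 ± 0.33 (SE), adjusted p = 0.017). The groups overlapped, and the call was lost without Vec 1 (adjusted p = 0.0503) and without Vec 2 (adjusted p = 0.0597). The Hamp call was also lost in the fit of the 10 libraries alone (adjusted p = 0.0733). Of 20 iron genes, 4 were called lower and 2 higher, but 1 in all without Vec 2, and 3 lower and 6 higher without scaling. Of 26 genes of bile acid synthesis and transport, 11 were called lower and 1, the efflux pump Abcc4, higher (a call lost without Vec 1, Vec 2 or Vec+BBR 2, adjusted p = 0.0542, 0.0644 and 0.0615), with a median of -0.34 and 6 (without Vec 2) to 15 (without Vec 3) members called when a library was left out. The Abcc4 call was also lost in the fit of the 10 libraries alone (adjusted p = 0.0547) and with the replicate number as a block (adjusted p = 0.0521). Slc27a5, which activates bile acids for conjugation, fell from 1234 ± 247 to 736 ± 38.6 CPM (SD, n = 5). Cyp7b1, of the alternative synthesis pathway, fell from 21 ± 5.54 to 8.29 ± 1.84 CPM. Among genes of urate handling, the pathway on which the drug acts in the kidney, 4 of 16 were called lower and 1 higher, against 2 in all without Vec 1, 8 without Vec 3, and 1 lower and 2 higher without scaling. Urah, which acts after urate oxidase, fell by 0.55 on the log2 scale (adjusted p = 5.19e-04), and Uox, urate oxidase itself, was at 2303 and 2134 CPM (log2 fold change -0.11, adjusted p = 0.52).

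Genes that differ between the sexes in mouse liver were called lower more often than higher in both lists. Of 25 male-biased genes tested, 9 were called lower and 0 higher (median -0.64), and of 38 female-biased genes, 11 were called lower and 3 higher (median -0.53). The female-biased list includes Sult2a genes named above, and the male-biased list C8b and Cyp7b1. Mup3, a male-biased major urinary protein, was at a mean of 1345 ± 604 CPM in Vec and 455 ± 208 CPM in Vec+BBR (SD, n = 5, adjusted p = 0.0077). Without Vec 4 the median of the female-biased list was -0.15 and without Vec 1 that of the male-biased list was -0.45.

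A part of the cholesterol synthesis genes passed the test, nearly all of them higher. Of 25 genes tested, 6 were called higher and 1, Ebp, lower, 24 had a positive log2 fold change, and the median was 0.57. Without Vec 3, 19 members were called, and without Vec 1, 4. Hmgcs1, which makes HMG-CoA, was at 17.4, 23.8, 80.8, 20.5 and 41 CPM in Vec and 70.8, 113, 101, 146 and 96.2 CPM in Vec+BBR (log2 fold change 1.52 ± 0.34 (SE), adjusted p = 0.0049). Idi1, an isomerase of the isoprenoid steps, was at 8.42, 10.5, 39.3, 9.79 and 24.2 CPM and 39.2, 71, 56.4, 79.7 and 58.2 CPM (log2 fold change 1.72 ± 0.38 (SE), adjusted p = 0.0052), and 15.8% of its windows recur in the entries Gm13502 and Gm35570. Sqle, squalene epoxidase, was at 4.61, 5.08, 18.3, 3.19 and 6.26 CPM and 13.8, 29.7, 23.9, 34 and 22.7 CPM (log2 fold change 1.72 ± 0.39 (SE), adjusted p = 0.0052). In all 3 genes Vec 3 lay inside the Vec+BBR range, and the other 4 Vec livers lay below it.

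Genes of this pathway are known targets of the sterol-regulated factor SREBP2, which binds sterol response elements next to CCAAT boxes bound by NF-Y. Windows from RefSeq (GRCm38.p6) were matched for 17 of the 25 genes, and the letters CCAAT, on either strand, were found in 16 of them, 94.1%, beside 37.4% of all 32851 promoter windows and 43% of the tested genes with a window. The letters TCACNCCAC, on either strand, were found in 1 of 17, Hmgcs1, beside 1.24% of all windows. The windows of the 2 called members described above are shown 5′ to 3′ on the plus strand, Hmgcs1 at chr13:119690101-119690400 and Idi1 at chr13:8885356-8885655, with both motifs in capitals (ATTGG is CCAAT on the other strand). A match describes letters only, and no binding was measured. The genes were taken by pathway, called or not, and a part of SREBP2 in the BBR effect was not tested.
Hmgcs1: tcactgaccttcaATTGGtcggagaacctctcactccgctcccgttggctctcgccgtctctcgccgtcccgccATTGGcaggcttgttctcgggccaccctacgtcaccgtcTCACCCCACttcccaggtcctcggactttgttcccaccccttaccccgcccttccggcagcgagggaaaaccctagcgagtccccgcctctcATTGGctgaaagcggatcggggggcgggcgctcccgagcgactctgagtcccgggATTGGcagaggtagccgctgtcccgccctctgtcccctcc
Idi1: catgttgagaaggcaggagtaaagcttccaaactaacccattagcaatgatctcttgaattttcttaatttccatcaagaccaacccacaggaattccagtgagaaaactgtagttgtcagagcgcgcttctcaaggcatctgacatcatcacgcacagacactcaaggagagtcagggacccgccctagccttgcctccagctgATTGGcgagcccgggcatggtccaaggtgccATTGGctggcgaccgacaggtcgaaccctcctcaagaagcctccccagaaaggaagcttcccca

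For fatty acid synthesis the Vec livers differed widely among themselves. The 19 genes of the list summed to between 3458 and 39590 CPM in the Vec livers and between 31863 and 39701 CPM in the Vec+BBR livers. Scd1, the most abundant member, averaged 10500 CPM in Vec and 29500 CPM in Vec+BBR, most of the Vec+BBR sum. It was not called by edgeR (log2 fold change 1.49, adjusted p = 0.092). Vec 3 and Vec 5 held the 2 highest sums of the Vec group, 39590 and 22878 CPM. Fasn, fatty acid synthase, was at 201, 307, 1819, 127 and 1207 CPM in Vec and 655, 914, 1380, 880.2 and 984 CPM in Vec+BBR (log2 fold change 0.39 ± 0.55 (SE), adjusted p = 0.68). Only 1 member, Srebf1, was called, and it was lower (-0.57, adjusted p = 0.044), a call that was lost when any 1 of the 10 libraries was left out (without scaling, 0 were called lower and 1 higher). Without Vec 3, 8 members of the list were called, and its median was 0.79 instead of 0.37.

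The pair of genes that define glucose release and gluconeogenesis fell relative to the typical gene. G6pc, glucose-6-phosphatase, was at 665, 701, 516, 621 and 808 CPM in Vec and 304, 262, 379, 507 and 496 CPM in Vec+BBR (log2 fold change -0.77 ± 0.22 (SE), adjusted p = 0.023), a call that was lost without Vec 2 (adjusted p = 0.0512) and without Vec+BBR 2 (adjusted p = 0.0662). Pck1, phosphoenolpyruvate carboxykinase, was at 3935, 4084, 2489, 4529 and 2577 CPM and 2299, 2286, 1993, 2575 and 2075 CPM (log2 fold change -0.65 ± 0.17 (SE), adjusted p = 0.015). For Pck1, Vec 3 lay inside the Vec+BBR range and Vec 5 was level with its upper end. Without scaling neither gene was called by edgeR. The log2 fold changes were then -0.63 for G6pc (adjusted p = 0.0529) and -0.51 for Pck1 (adjusted p = 0.0515). Of 17 genes of gluconeogenesis and glycogen, 4 were called lower and 2 higher (1 and 3 without scaling), and of 25 of glycolysis and fructose use, 2 lower and 4 higher, Hk2 among them (3 in all without Vec 1). Of 19 targets of insulin and FOXO, 0 were called by edgeR in this comparison, and 3 without Vec 3.

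**Figure D3:**
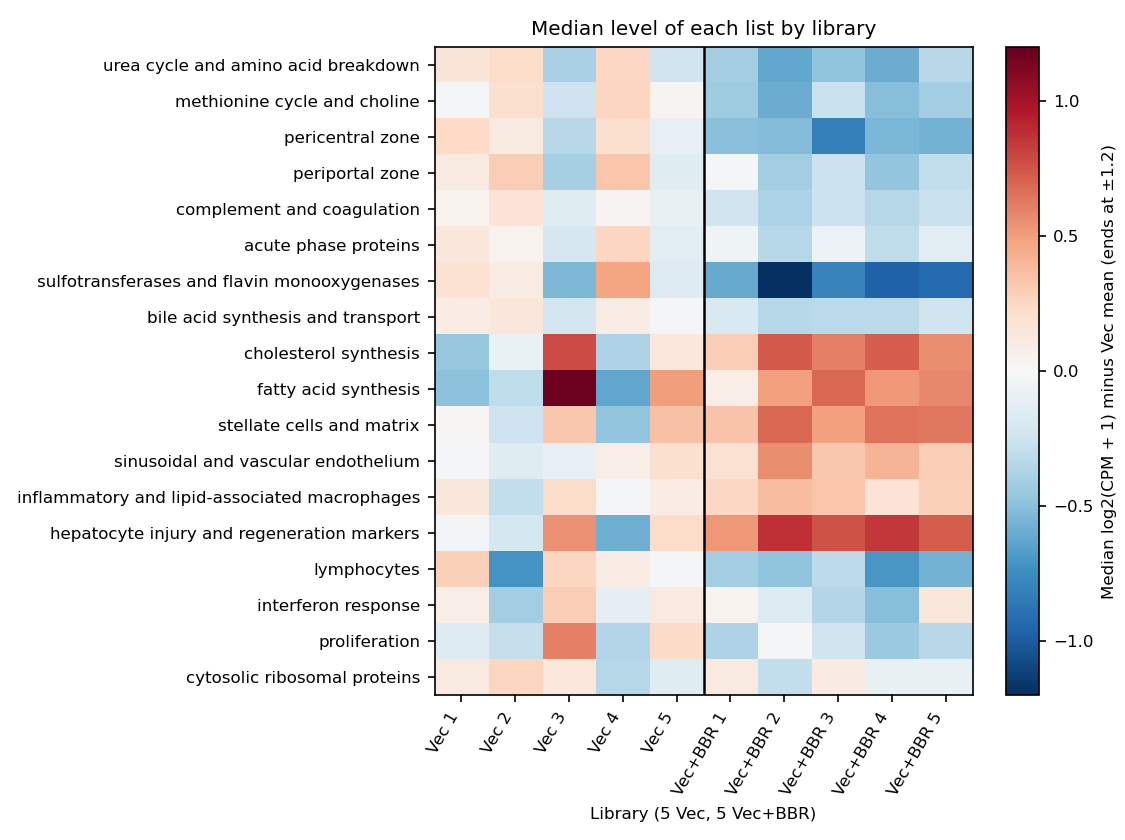
Median over the members of 18 gene lists of log2(CPM + 1) minus the mean of the Vec livers, for each of the 10 libraries (5 Vec to the left of the line, 5 Vec+BBR to the right), on a colour scale that ends at ±1.2. Vec 3 has the highest value of the 10 for fatty acid synthesis (1.18) and cholesterol synthesis (0.79), and the 5 Vec+BBR livers lie between -0.51 and -0.82 for the pericentral list.

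Of the genes of connective tissue cells and of endothelium, all that were called were higher. Of 35 genes of stellate cells and matrix, 15 were called higher and 0 lower, with a median of 0.61, and 11 had no overlap between the groups. Their summed level was 495 to 871 CPM in Vec and 916 to 1078 CPM in Vec+BBR. Col1a1, a chain of the fibrillar collagen type I, was at 10.3, 6.23, 17.8, 3.45 and 15.3 CPM in Vec and 17.9, 25.5, 26.2, 24.1 and 27.5 CPM in Vec+BBR (log2 fold change 1.18 ± 0.31 (SE), adjusted p = 0.015). Lrat, which esterifies retinol in quiescent stellate cells, was at 9.22, 4.95, 12.3, 3.19 and 10.4 CPM and 12.8, 13.3, 12.9, 12.5 and 13.6 CPM and missed the threshold (log2 fold change 0.69 ± 0.24 (SE), adjusted p = 0.057). For both genes the lowest Vec+BBR livers were close to Vec 3, and Vec 2 and Vec 4 were far lower. Col5a2, of fibrillar collagen, rose by 1.19 on the log2 scale (adjusted p = 0.0054), and Dcn, decorin, the most abundant member, was at 130.0 and 167 CPM (adjusted p = 0.091). Between 10 members (without Vec 2) and 20 (without Vec 5) were called when a library was left out.

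Of 28 endothelial genes, 15 were called higher and 0 lower, with a median of 0.39, summed levels of 338 to 424 CPM in Vec and 422 to 563 CPM in Vec+BBR, and 9 (without Vec 1) to 17 (without Vec 5) members called on leaving out a library. Lyve1, a hyaluronan receptor of sinusoidal and lymphatic endothelium, was at 5.11, 4.95, 7.26, 4.31 and 8.48 CPM in Vec and 6.75, 15.8, 12.8, 10.8 and 11.1 CPM in Vec+BBR (log2 fold change 0.92 ± 0.22 (SE), adjusted p = 0.0076). Vwf, von Willebrand factor, rose from 11.5 ± 3.11 to 20.1 ± 3.42 CPM and Gpr182, a receptor of sinusoidal endothelium, from 12.9 ± 1.84 to 22.1 ± 4.95 CPM (SD, n = 5). Stab2, another sinusoidal marker, was not called, at 21.8, 17.7, 15.2, 27.4 and 26.5 CPM in Vec and 19.9, 24.8, 23.8, 21.6 and 21.4 CPM in Vec+BBR (log2 fold change 0.04 ± 0.17 (SE), adjusted p = 0.91). Over the same livers 5 of 21 hepatocyte identity genes were called lower and 0 higher, with summed levels of 146610 to 186216 CPM in Vec and 109283 to 151632 CPM in Vec+BBR, and the part of the cell mixture in these results was not tested.

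Among genes listed as markers of stressed or regenerating hepatocytes, the called genes were higher. Of 21 tested, 10 were called higher and 0 lower, with a median of 0.67. The count was 4 without Vec 2 and 14 without Vec 3. The livers were measured whole, and which cells held these transcripts was not tested. Lgals3, galectin-3, which macrophages express as well, was at 10.4, 6.11, 14.4, 7.5 and 11.6 CPM in Vec and 16.5, 28.7, 20.7, 31.8 and 20.6 CPM in Vec+BBR (log2 fold change 1.23 ± 0.25 (SE), adjusted p = 0.0027). Lgals1, galectin-1, rose from 34.5 ± 28.2 to 109 ± 23 CPM (SD, n = 5). Anxa2, a membrane-binding annexin, was at 24.7, 14.7, 98.4, 9.28 and 34.5 CPM in Vec and 73.1, 98.4, 95.7, 139.7 and 98.6 CPM in Vec+BBR (log2 fold change 1.47 ± 0.44 (SE), adjusted p = 0.027). Vec 3 was level with the Vec+BBR livers for Anxa2. The Anxa2 call was lost without Vec 1 (adjusted p = 0.0765), Vec 2 (adjusted p = 0.0733), Vec 4 (adjusted p = 0.0507) or Vec+BBR 4 (adjusted p = 0.0702). It was also lost in the fit of the 10 libraries alone (adjusted p = 0.0803), with the replicate number as a block (adjusted p = 0.0541) and in robust edgeR (adjusted p = 0.0514). Of 18 heat shock and chaperone genes, 4 were called higher and 1 lower (8 in all without Vec 5), and the largest change was that of the small heat shock protein Hspb1, at 3.66, 2.19, 12.4, 1.52 and 13.1 CPM in Vec and 26.1, 21.5, 17.9, 29 and 21.3 CPM in Vec+BBR (log2 fold change 1.80 ± 0.40 (SE), adjusted p = 0.0052), although 44% of its windows recur in the pseudogene Hsp25-ps1.

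Immune cell genes did not move as a block. Of 23 genes of Kupffer cells and other macrophages, 2 were called lower and 1 higher, and 1 in all without Vec 1. The share called, 13%, was below the 15.5% over all genes. Without scaling, 1 was lower and 1 higher. Clec4f, a defining Kupffer cell lectin, was at 65.2, 37.7, 59.4, 66.5 and 74.9 CPM in Vec and 61.3, 53.6, 56.7, 37.2 and 51.3 CPM in Vec+BBR (log2 fold change -0.23 ± 0.16 (SE), adjusted p = 0.36), whereas Marco, a scavenger receptor, was at 26.9, 2.44, 6.18, 29 and 9.18 CPM and 1.41, 1.61, 3.66, 0.58 and 1.84 CPM (log2 fold change -3.03 ± 0.62 (SE), adjusted p = 0.0029). The Marco value of Vec 2 lay inside the Vec+BBR range. In contrast, 8 of 18 genes of inflammatory and lipid-associated macrophages were called higher and 1, Ccl5, lower, with a median of 0.44 and summed levels of 66.8 to 127 CPM in Vec and 127 to 224 CPM in Vec+BBR. Without Vec+BBR 2, 5 of them were called. Gpnmb, a glycoprotein of lipid-laden macrophages, was at 2.71, 5.91, 9.32, 4.06 and 6.88 CPM in Vec and 7.05, 36.3, 22.7, 25.1 and 21.7 CPM in Vec+BBR (log2 fold change 1.96 ± 0.40 (SE), adjusted p = 0.0026). Spp1, osteopontin, which bile duct cells express too, was at 27.3, 29.4, 42.8, 21.8 and 31.4 CPM and 55.4, 91.9, 46.5, 53.3 and 58.5 CPM (log2 fold change 1.00 ± 0.24 (SE), adjusted p = 0.0075). Bile duct markers summed to 64.5 to 80.6 CPM in Vec and 96.1 to 161 CPM in Vec+BBR, with 2 of 12 called higher, and their part in the Spp1 result was not tested.

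Lymphocyte genes were near the limit of detection. Of 24 listed 14 were tested, 6 were called lower and 0 higher, and their summed level was 3.34 to 35.8 CPM in Vec and 4.64 to 15.1 CPM in Vec+BBR, where 3 counts in a library corresponded to 0.123 to 0.168 CPM. Nkg7, of natural killer and cytotoxic T cells, was at 1.45, 0.064, 2.26, 0.96 and 1.13 CPM in Vec and 0.51, 0.13, 0.24, 0.18 and 0.19 CPM in Vec+BBR (log2 fold change -2.22 ± 0.60 (SE), adjusted p = 0.017). Cd8a, of cytotoxic T cells, was at 1.15, 0, 1.32, 0.76 and 0.99 CPM and 0.26, 0.18, 0.24, 0 and 0 CPM. In both genes Vec 2 was as low as the Vec+BBR livers, and only 1 member of the list was called without Vec 1. The largest count of Cd8a was 27 in Vec and 6 in Vec+BBR, and that of Nkg7 46 and 12. The filter asked for the minimum count in a part of the 20 libraries only. Members could thus enter the test through groups where they were higher, and the split of the calls does not describe lymphocytes as a whole. Of 34 interferon response genes, 4 were called lower and 0 higher, against 1 without Vec 1 and 8 without Vec 3. The share called, 11.8%, was below the 15.5% over all genes. Psmb8, an immunoproteasome subunit, was at 45.1, 22, 27.2, 33.9 and 28.4 CPM in Vec and 16.5, 12, 14.1, 8.57 and 17.6 CPM in Vec+BBR (log2 fold change -1.19 ± 0.24 (SE), adjusted p = 0.0028), with no overlap.

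Of 32 cell cycle genes tested, 2 were called, both lower, against 1 without Vec 1 and 6 without Vec 4. This was 6.25% of the list, below the 15.5% called over all genes. Tk1, thymidine kinase, was at 21.8, 29.4, 17, 18.4 and 17.1 CPM in Vec and 7.48, 6.85, 7.56, 5.09 and 6.59 CPM in Vec+BBR (log2 fold change -1.62 ± 0.16 (SE), adjusted p = 7.94e-06), and the groups were far apart. Cfd, adipsin, which fat cells secrete, was at 0.25, 0, 0.78, 0 and 0.33 CPM and 3.12, 1.12, 2.43, 1.29 and 5.6 CPM (log2 fold change 3.22 ± 0.70 (SE), adjusted p = 0.0043), while 3 of 10 listed adipocyte markers passed the filter on low counts. Of the other two, Cyp2e1, a cytochrome P450 that hepatocytes express as well, was called lower, at 10070, 11953, 6760, 10792 and 7674 CPM in Vec and 6506, 4907, 4965, 4745 and 6048 CPM in Vec+BBR (log2 fold change -0.80 ± 0.17 (SE), adjusted p = 0.0043), and Car3, carbonic anhydrase 3, was not called (log2 fold change 0.17, adjusted p = 0.7). The list summed to 8209 to 12882 CPM in Vec and 5752 to 8457 CPM in Vec+BBR, most of it Cyp2e1, so that the sum does not follow fat cells. Erythroid genes had 0 of 9 called by edgeR (1 without Vec+BBR 1), with Hbb-bs at 363 and 573 CPM (adjusted p = 0.2). Of 13 pancreatic acinar markers, only Cela1, an elastase, passed the filter, and it was called higher, at 3.26, 3.47, 3.73, 3.65 and 2.31 CPM in Vec and 4.49, 5.64, 4, 4.82 and 5.08 CPM in Vec+BBR (log2 fold change 0.55 ± 0.15 (SE), adjusted p = 0.015). The call was lost without Vec+BBR 2. The list summed to 2.59 to 3.97 CPM in Vec and 4.33 to 6.36 CPM in Vec+BBR, and Prss2, Cel, Clps and Cpb1 were at 0 in all 10 libraries.

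Lists of stress responses and of conjugation held called genes in both directions. Of 22 genes of the unfolded protein response, 5 were called higher and 1 lower (3 in all without Vec 2), and of 27 of the integrated stress response, 2 higher and 4 lower (4 in all without Vec 1, and 2 higher and 1 lower without scaling). These are 27.3% and 22.2% of the members, beside 15.5% of all genes. Nupr1, a stress-induced nuclear protein, was at 0.65, 0.64, 0.69, 0.56 and 0.71 CPM in Vec and 1.2, 2.37, 1.47, 1.74 and 1.65 CPM in Vec+BBR (log2 fold change 1.37 ± 0.27 (SE), adjusted p = 0.0023). Among 23 targets of NRF2, 4 were called higher and 1 lower (3 in all without Vec 1), including Gclc, of glutathione synthesis (0.65, adjusted p = 9.79e-04), and Srxn1, sulfiredoxin (0.76, adjusted p = 0.0031). Glucuronosyl and glutathione transferases were split, with 6 of 33 called higher and 7 lower (6 in all without Vec 2, and 7 higher and 3 lower without scaling), and Ugt1a9 was at 124, 166, 243, 85 and 214 CPM in Vec and 441, 332, 338, 364 and 453 CPM in Vec+BBR (log2 fold change 1.21 ± 0.22 (SE), adjusted p = 0.0011), although 58.5% of its windows recur in other Ugt1a genes, which share their last exons.

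Of 76 nuclear genes of the respiratory chain, 6 were called lower and 0 higher, and 70 had a negative log2 fold change, with a median of -0.18. The share called lower, 7.9%, was near that over all genes, 7.88%. Without scaling, 3 were called lower and 1 higher, and the median was -0.05. Without Vec+BBR 1, the liver with the highest mitochondrial share, 18 were called, and without Vec 2, 1. None of the 13 mitochondrially encoded genes and none of the 78 cytosolic ribosomal protein genes was called by edgeR. Of 32 proteasome genes, 7 were called lower and 1 higher, against 1 in all without Vec 2, and 1 lower and 2 higher without scaling. Of 32 lysosomal genes, 6 were called lower and 4 higher, against 6 in all without Vec 1, and the split turned to 0 lower and 7 higher without scaling (median 0.05 instead of -0.08). Of 18 genes of the growth hormone and IGF axis, 2 were called, both binding proteins that fell, Igfbp2 and Igfbp4. The share called, 11.1%, was below the 15.5% over all genes. Without Vec 5, 4 were called, and without scaling 1 lower and 1 higher. Among glucocorticoid-responsive genes, 6 of 19 were called lower and 0 higher, with Mt2, a metallothionein, falling from 462 ± 154 to 191 ± 87.5 CPM (SD, n = 5).

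Among retinoid genes, 2 of 18 were called higher and 3 lower (8 in all without Vec 3, and 4 higher and 2 lower without scaling), with the largest decrease in Cyp26a1, which degrades retinoic acid, from 38.5 ± 18.5 to 8.34 ± 0.62 CPM (SD, n = 5, adjusted p = 0.0018). Of 24 genes of lipoproteins, 7 were called lower and 1 higher (3 in all without Vec 2, and 2 lower and 2 higher without scaling), and Lipc, hepatic lipase, fell by 0.65 on the log2 scale (adjusted p = 0.0013). Apoe, the most abundant member, was at 21542 and 19310 CPM (adjusted p = 0.34). Of 18 hepatokines, 5 were called lower and 1, Selenop, higher, 33.3% in all beside 15.5% of all genes. Lect2, a secreted chemotactic factor, fell by 1.07 on the log2 scale (adjusted p = 5.57e-04). In the remaining lists, 1 of 19 genes of peroxisome biogenesis was called higher and 1 lower (1 in all without Vec 1), and 1 of 19 p53 targets and 1 of 4 neutrophil genes were called higher (0 each without Vec 1). Of the clock genes, 1 of 5 of the Bmal1 phase was called lower (0 without Vec 4, 2 without Vec 1), and 1 of 12 of the Rev-erb and Per phase (0 without Vec 2, 4 without Vec 3). By edgeR, 0 of 1 tested dendritic cell gene and 0 of 2 muscle genes were called.

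The same drug contrast was available in livers with the Pparg shRNA, from the other 10 libraries. There 15.7% of genes were called, 8.37% higher and 7.28% lower. Of the 936 genes higher with BBR in Vec livers, 317 were called higher in shRNA livers, beside 8.37% of all genes tested. Of the 972 lower genes, 236 were called lower there, beside 7.28% of all genes tested. The opposite direction was called for 5 and 8 genes. Csad (1.52, adjusted p = 0.0096), Arhgap27 (1.86, adjusted p = 0.0021), Serpina1c (-0.71, adjusted p = 0.026), Col1a1 (1.7, adjusted p = 0.0046) and Lgals3 (1.48, adjusted p = 0.0037) were called in the same direction there on the log2 scale. Oat (-0.40, adjusted p = 0.39), Bhmt (-0.14, adjusted p = 0.47), Hsd17b13 (0.26, adjusted p = 0.14), Tat (-0.16, adjusted p = 0.7) and Psmb8 (0.31, adjusted p = 0.37) were not called. A difference between the drug effects in Vec and shRNA livers was not called by edgeR's interaction test for any of them. Its adjusted p was 0.10 for Oat, 0.16 for Bhmt, 0.069 for Hsd17b13 and 0.16 for Tat. Of the pericentral list 1 member was called higher and 2 lower in shRNA livers (median 0.003), and of the lymphocyte list 5 higher and 0 lower (median 1.18). For the lymphocyte list the limit of the count filter given above holds here too. The interaction was called for 1 pericentral and 0 lymphocyte members.

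**Figure D4:**
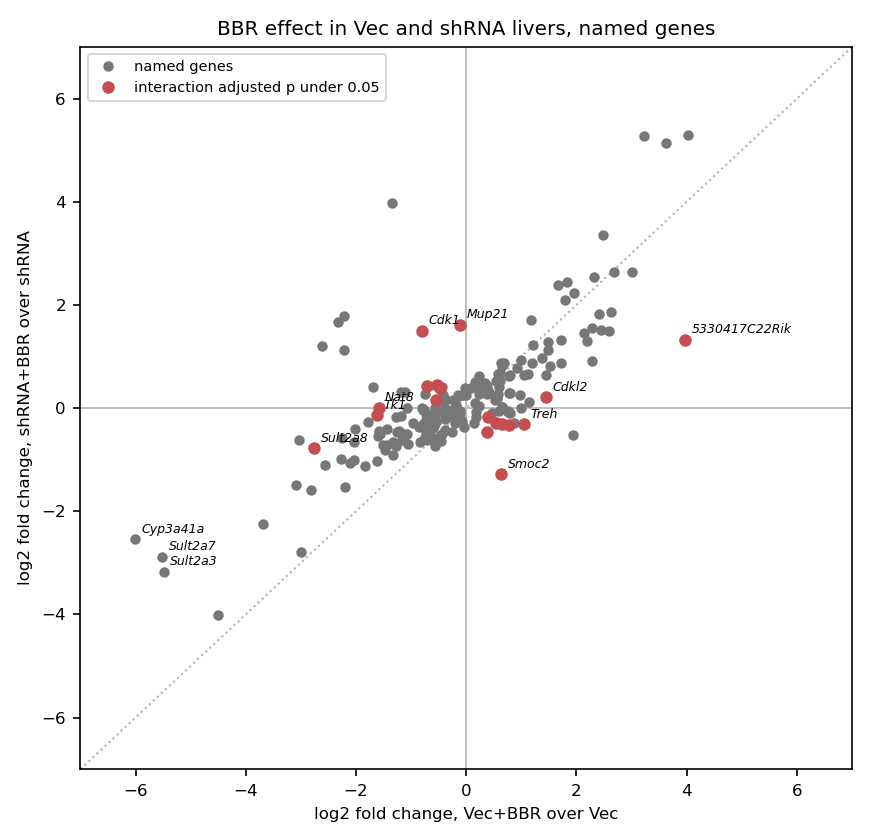
log2 fold change with BBR in Vec livers (x axis) and in shRNA livers (y axis) for the named genes, each from 5 livers a group with no shared controls, with the dotted line at equal change and red points for an interaction at an adjusted p under 0.05. Sult2a8 lies at -2.75 and -0.78, and Cdk1 at -0.80 and 1.5.

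A difference between the 2 drug effects was called by edgeR for 18 genes, 0.146% of those tested, and 2281 genes had an unadjusted p under 0.05 for it. Tk1 fell in Vec livers and averaged 10.6 CPM in the shRNA group and 9.59 CPM in the shRNA+BBR group (interaction -1.48 on the log2 scale, adjusted p = 0.011). Sult2a8 averaged 64.9 CPM in the shRNA and 37.9 CPM in the shRNA+BBR group (interaction -1.98, adjusted p = 0.033), a smaller decrease than in Vec livers. Nat8, an acetyltransferase, fell from 30.5 to 10.1 CPM in Vec livers and was at 18.6 and 18.7 CPM in shRNA livers. Treh, which splits trehalose, rose from 9.22 to 19 CPM in Vec livers and was at 18.1 and 14.5 CPM in shRNA livers.

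The pericentral transcription factor Tbx3 was called lower with BBR in Vec livers (-0.47) and higher in shRNA livers (0.38), as were Pkdcc (-0.71 and 0.43) and the cyclin Ccnd3 (-0.52 and 0.44), while Arhgef7 (0.37 and -0.47) and Golph3l (0.54 and -0.30) were called in the reverse order. Cdk1, of mitosis, was called in shRNA livers alone (1.5, adjusted p = 0.0049, beside -0.80, adjusted p = 0.068, in Vec livers), as were Smoc2 and Mup21. In Vec livers alone, Cdkl2 (1.46), Creb3l2 (0.65), Akap7 (0.78) and Krcc1 (0.40) rose and Ifitm2 (-0.54) fell. The transcript 5330417C22Rik rose in both, by 3.97 and 1.33. These 18 genes were named because the interaction was called, and the number called ranged from 5 without Vec+BBR 4 to 122 without Vec 4.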

How the data were processed

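RNA was measured in 20 livers, of which the 10 with the control vector are described here. Per the labels, mRNA was selected with oligo(dT) beads and sequenced on an Illumina platform, with the build mm10 named in the submitters' processing notes. The aligner, the counter and strand handling are not given in the sources used here. Expected counts per gene were made by the authors before deposition and not normalized, with 92.8% to 93.3% of them whole numbers. FPKM values, which the authors also deposited, are scaled by length and depth and were not tested.

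Expected counts were rounded, filtered with filterByExpr (minimum count 10) to 12342 of 22298 genes, scaled by TMM and tested with edgeR 4.0.16 (R 4.3.3) by the quasi-likelihood test with a mean for each of 4 groups of 5, Benjamini-Hochberg adjustment and a threshold of 0.05. Values per liver are TMM-normalized CPM, and ± is the SD over 5 livers unless named SE. Nothing in the labels says that libraries of a group come from separate mice beyond their numbers, so p-values measure the spread between these samples. No 2 libraries of a group were duplicates. The script was tested on simulated data first.

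Gene lists (52) were written from general knowledge. The lists, the genes named and the comparison were chosen with earlier results of these data known. The named genes are, among called genes with a mean count of at least 50, no overlap of the groups and no Cyp symbol, the 15 largest increases and 15 largest decreases and the 10 largest in CPM each way. To these were added the 3 largest called changes and the most abundant member of each list, and defining markers of cell types, called or not. Fasn, Cps1, Anxa2, Lgals3, Glul, Agxt2, Ebp and the interaction genes were named after their values were seen, and some genes of the rule are not reported. Alternatives were other filters and scalings, DESeq2 1.42.0, limma-voom 3.58.1 with quality weights, robust edgeR, the 10 libraries alone, the replicate number as a block, and each library left out. Positions are GENCODE M21 on GRCm38, and promoter windows are RefSeq GRCm38.p6. Windows of 100 bases were compared over GENCODE M21 transcripts, and promoters were aligned globally (match 1, mismatch -1, gap -2). Group membership came from labels alone.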

Additional observations from a re-analysis of the deposited data

Results flagged for a closer look

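Flagged values among the 110 groups of 5 values examined numbered 9, where chance gives about 1 in 20 groups. In the Vec group, the highest value stood far from the other 4 for Hk2 (2.40 CPM, Vec 3), Sqle (18.3 CPM, Vec 3) and Anxa2 (98.4 CPM, Vec 3). In the Vec+BBR group, this held for Nkg7 (0.51 CPM, Vec+BBR 1) and Spp1 (91.9 CPM, Vec+BBR 2), and the lowest value stood apart for Wfdc2 (12.8 CPM, Vec+BBR 2). Among library measures of Vec+BBR, the highest total count (24451866), the highest number of genes with a count (15057) and the highest mitochondrial share (13.8%) stood apart.

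The effect of BBR differed between Vec and shRNA livers in edgeR's interaction test for 18 genes, given as the log2 fold change in Vec minus that in shRNA livers. It was negative for Tbx3 (-0.86, adjusted p = 0.029), Cdk1 (-2.31, adjusted p = 0.028), Pkdcc (-1.14, adjusted p = 0.0028), Tk1 (-1.48, adjusted p = 0.011), Nat8 (-1.59, adjusted p = 0.02), Sult2a8 (-1.98, adjusted p = 0.033), Ccnd3 (-0.97, adjusted p = 0.041), Ifitm2 (-0.70, adjusted p = 0.024), Mup21 (-1.73, adjusted p = 0.047). It was positive for Smoc2 (1.92, adjusted p = 0.047), Cdkl2 (1.24, adjusted p = 0.038), Arhgef7 (0.84, adjusted p = 0.033), Treh (1.36, adjusted p = 0.011), Creb3l2 (0.97, adjusted p = 0.041), Akap7 (1.12, adjusted p = 0.014), 5330417C22Rik (2.65, adjusted p = 0.038), Golph3l (0.84, adjusted p = 0.011), Krcc1 (0.57, adjusted p = 0.029).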

How the results depend on the processing

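With 1908 genes called in Vec livers (936 higher, 972 lower), leaving out each library gave 1237 to 2395 (548 to 1179 higher, 648 to 1216 lower). Fitting the 10 libraries alone gave 1178 (556 higher, 622 lower), of which 1148 were among the 1908. Without scaling beyond the total, 1831 were higher and 459 lower. In shRNA livers 1932 genes became 661 to 2527 when a library was left out. The 18 interaction calls became 5 to 122 with a library left out, 30 without scaling, 330 in DESeq2 and 154 in limma-voom with quality weights. DESeq2 called 2249 genes in Vec livers and limma-voom 2313. With the replicate number as a block, 808 genes were called in Vec livers (421 higher, 387 lower), 2367 in shRNA livers and 21 for the interaction. Libraries with the same number are not paired by the labels, and the correlations of their deviations from the group means ran from -0.365 to 0.376 over the 5 numbers of Vec and Vec+BBR, with 1 of 5 correlating best with its own number. Of 157 named genes with a call, 89 kept it under every alternative listed, and no named gene turned its direction while called. The other 68 lost it under at least 1 alternative. Median log2 fold changes of gene lists moved by more than 1 SD in 38 of 1038 refits. Several lymphocyte genes lay near the counting floor, where depth limits what can be told. The causes of these shifts were not tested.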
